A study of Mus musculus with 13 samples.

Results

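The genes described here are 10 ligands, receptors and direct response genes that serve as readouts of Nodal, BMP, FGF and LIF signalling: Lefty1, Gdf3, Bmp4, Id1, Id3, Dusp6, Dusp4, Etv5, Pim1 and Il6st. They were taken as every probe whose annotation gave exactly 1 gene symbol and that symbol was a member. All 10 were found among the 9669 genes named by single-symbol probes, on 12 probes, of which 11 could be tested and 9 had a value on all 13 arrays. The study hybridised total RNA of mouse sources named NT1 and TBV together on two-colour arrays, and the title of the series writes Sall4 -/- beside the name NT1. The source pairs were NT1 at passage 14 with TBV at passage 13 (NT1p14 and TBVp13, here the p14 pair, 5 arrays, 3 of them with NT1 in Cy5), NT1 and TBV both at passage 12 (NT1p12 and TBVp12, the p12 pair, 4 arrays, 2 with NT1 in Cy5), NT1 1 with TBV2 (the TBV2 pair, 2 arrays, 1 in each dye orientation, no passage given) and NT1p12 with TBVp13 (the mixed pair, 2 arrays, 1 in each orientation). Passages are taken from the p in the source names. As far as the labels tell there is 1 NT1 and 1 TBV line, and the labels give no cell type, treatment, strain or age. The mixed pair shares both its sources with other pairs, so it is shown beside the 3 independent pairs and is no replicate. Independent here means only that these pairs share no source name. Their SDs and p-values measure the spread between source pairs of these lines, and not between lines.

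Nodal binds activin receptors with a Cripto co-receptor and acts through Smad2 and Smad3, while BMP ligands act through Smad1 and Smad5 and raise the Id genes. FGF receptors drive the Ras and ERK kinase cascade, whose target genes include phosphatases that switch ERK off again. LIF binds a receptor that pairs with gp130 and activates Stat3, the signal that keeps mouse embryonic stem cells in the undifferentiated state in culture, and FGF signalling favours their exit from it.

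Every value below is a log2 ratio of NT1 over TBV, centred on the median of its array, so 1 stands for a 2-fold difference. The signs assume that the deposited ratio is Cy5 divided by Cy3, and the labels do not say so. Across all probes the pair values of the p14 pair and the p12 pair correlated at -0.50, those of the p14 pair and the TBV2 pair at 0.13, and those of the p12 pair and the TBV2 pair at -0.04. The direction of the first 2 pairs relative to each other is therefore not settled, and members are given with the signs of a pair turned where that matters. Arrays had 14314 to 18381 probes with a value, and 2.40% to 40.4% of an array's values were whole numbers without decimals. Arrays 4 and 5 of the p14 pair had the widest spread of values (SD 1.00 and 1.14, against 0.34 to 0.81 on the others). The Sall4 probe stood at 0.07, -0.59 and -0.32 in the 3 independent pairs, and whether it lies in a mutated part of the gene is not known here. Oct4 (Pou5f1) was at -0.25, -1 and -0.51. Of 11 pluripotency markers 7 were named on the array, and the ratio gives no level, so the cell type could not be checked by the presence of its markers. In bulk RNA, fewer cells of a type and less RNA per cell cannot be told apart.

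With the 3 independent pairs as replicates, none of the 10 genes passed the threshold between NT1 and TBV (limma, adjusted p = 1.00 for each of the 11 probes), and 0 of 15973 probes were called, a background of 0%. Before adjustment, 164 probes had a limma p under 0.05. Lefty1 was the 1 member among them, at 0.86 ± 0.80 (SD, n = 3, limma, unadjusted p = 0.0362). No member lay above 0 in all 3 pairs and none lay below 0 in all 3, whereas 8.75% of 7976 named genes lay above and 5.82% below. Probes of a gene were averaged for these counts, which rest on the unsettled direction. With the signs of the p14 pair turned, Etv5, Il6st and Pim1 lay above 0 in all 3 pairs and Bmp4, Dusp6, Gdf3 and Id1 below, beside 13.7% and 16.5% of the named genes. With the p12 pair turned, Dusp4 lay above 0 in all 3 and no member below, beside 19.1% and 21.1%. The turn was not tested, and nothing is read from these counts about the members. The median over the members was 0.01 for the mean of the 3 pairs, against -0.00 over all named genes. By pair the members' median was 0.02 in the p14 pair, -0.05 in the p12 pair and 0.05 in the TBV2 pair, against 0.02, 0.01 and -0.01 over all named genes.

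Within single pairs of RNA sources, 3 members passed the threshold. A fit over all 13 arrays with 1 ratio per pair and a dye term called Lefty1 and Dusp6 higher and Id3 lower within the p14 pair. The background there was 10.7% of 17992 probes, 5.42% higher and 5.31% lower, against 3 of the 11 member probes tested. Within the p12 pair no member was called, with a background of 0.259%, and within the TBV2 pair none was called, with a background of 0.0222%. Of the 11 member probes tested, 2, those of Lefty1 and Dusp6, also differed between the p14 pair and the p12 pair. There 19.1% of 17937 probes were called, so nothing particular to the members is read from this count. Arrays of a pair carry the same source names and were treated as repeat hybridisations, and the labels do not say whether 1 RNA preparation was used. The p-values therefore measure the spread between these arrays, which may be technical.

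**Figure D1:**
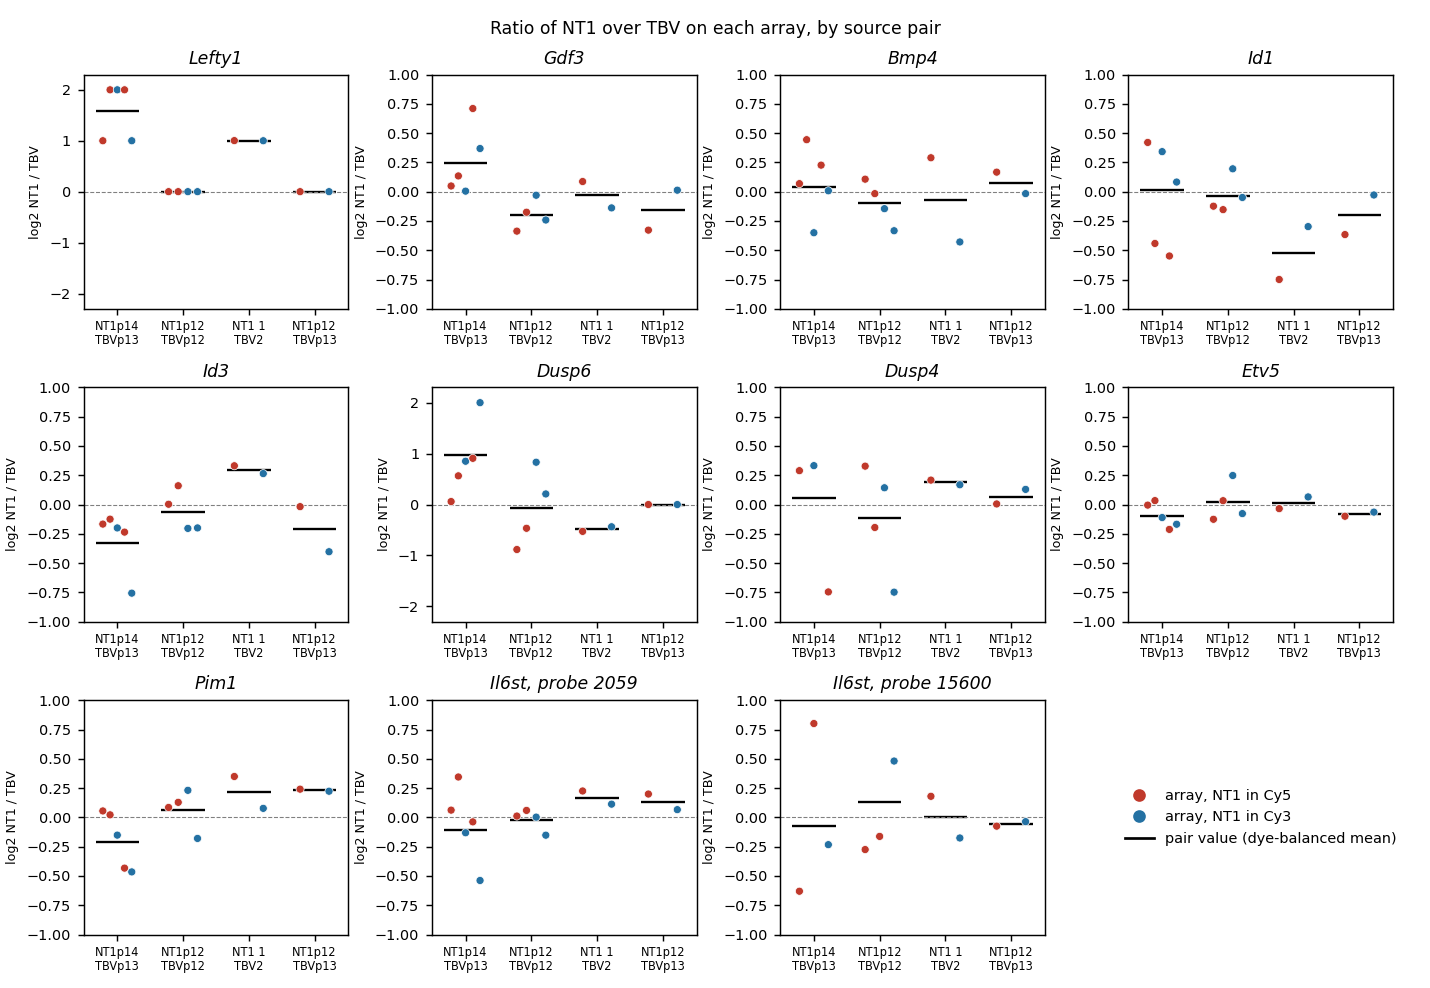
Log2 ratio of NT1 over TBV (vertical axis) on each array for the 11 member probes with more than 1 value, by source pair, with NT1 in Cy5 in red, NT1 in Cy3 in blue and the dye-balanced pair value as a bar. Lefty1 lies at 1 or 2 on all 5 arrays of the p14 pair and at 0 on all 4 of the p12 pair, and most other members scatter on both sides of 0.

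Lefty1 encodes a secreted antagonist of Nodal that is itself induced by Nodal signalling, and lies on chromosome 1 at 180935022 to 180938401 (GRCm38.p6). Its probe gave 1.00, 2, 2, 2 and 1.00 on the 5 arrays of the p14 pair. It gave 0.00 on each of the 4 arrays of the p12 pair, 1.00 on both arrays of the TBV2 pair, and 0.00 on both arrays of the mixed pair. Of the 13 arrays 7 lay above 0 and 6 at exactly 0, all 13 deposited values were whole numbers, and the arrays of the p14 pair did not overlap with those of the p12 pair. How many of all probes separate these 2 pairs was not counted, so the separation is not read as particular to Lefty1.

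The ratio of Lefty1 had the same sign in both dye orientations, at 0.89 over arrays with NT1 in Cy5 and 0.83 over arrays with TBV in Cy5. Within the p14 pair the fitted ratio was 1.59 ± 0.17 (SE, 5 arrays, limma over all arrays, adjusted p = 0.0079). Its pair value was 1.58, and of 16543 probes 302 lay at or above this value and 23 at or below its negative. Within the TBV2 pair it was 1.00 ± 0.26 (SE, 2 arrays, limma, adjusted p = 0.553). The difference between the p14 pair and the p12 pair was 1.59 ± 0.25 (SE, limma, adjusted p = 0.0152). The values without decimals make the spread between arrays of Lefty1 uncertain, since equal zeros lower it. The call within the p14 pair was lost when arrays 4 and 5 of that pair were both left out (1.69, limma, adjusted p = 0.104), an alternative chosen after seeing the data. The call of the difference was lost without array 1, array 2 or array 4 of the p12 pair (limma, adjusted p up to 0.0622 over 19 alternatives). With the signs of the p14 pair turned, the mean of the 3 pairs was -0.19.

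Gdf3 encodes a TGF-beta family ligand of early embryos and pluripotent cells that can signal through the Nodal receptors. It gave 0.05, 0.13, 0.00, 0.71 and 0.37 on the arrays of the p14 pair, and -0.34, -0.18, -0.03 and -0.24 on those of the p12 pair. It gave 0.09 and -0.14 in the TBV2 pair, and -0.33 and 0.01 in the mixed pair. All arrays of the p14 pair lay above all arrays of the p12 pair, yet the difference of 0.45 ± 0.17 (SE, limma, adjusted p = 0.0842) did not pass the threshold. The share of all probes with such a separation was not counted, so it is not read as particular to Gdf3. The mean of the 3 pairs was 0.01 ± 0.22 (SD, n = 3).

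Bmp4 encodes a BMP ligand that acts with LIF to hold embryonic stem cells undifferentiated. Its values were 0.07, 0.44, -0.35, 0.23 and 0.01 in the p14 pair, and 0.11, -0.02, -0.15 and -0.33 in the p12 pair. In the TBV2 pair they were 0.29 and -0.43, and in the mixed pair 0.17 and -0.02. Within each of the 4 pairs every array with NT1 in Cy5 lay above every array with TBV in Cy5. The first of the Il6st probes described below was split by dye in the same way in all 4 pairs. The share of all probes with such a split was not counted, so it is not read as particular to Bmp4. The mean was 0.19 over arrays with NT1 in Cy5 and -0.28 over arrays with TBV in Cy5, around -0.04 ± 0.07 (SD, n = 3) with both. The dye effect of 0.19 ± 0.06 (SE, limma, adjusted p = 0.0846) did not pass the threshold, and no other member passed it either, with 2.6% of 18231 probes called for the dye.

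Id1 and Id3 encode inhibitors of basic helix-loop-helix transcription factors and are the standard BMP and Smad1 target genes. Id1 gave 0.42, -0.44, 0.34, -0.55 and 0.08 in the p14 pair, and -0.12, -0.15, 0.20 and -0.05 in the p12 pair. It gave -0.75 and -0.30 in the TBV2 pair, and -0.37 and -0.03 in the mixed pair. Arrays of the first pair spread on both sides of 0, and those of the TBV2 pair were both below it. The fitted ratio in the TBV2 pair was -0.52 ± 0.20 (SE, limma, unadjusted p = 0.027, adjusted p = 1.00), and the mean of the 3 pairs was -0.18 ± 0.30 (SD, n = 3).

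Id3, on chromosome 4 at 136143822 to 136145392 (GRCm38.p6), gave -0.17, -0.12, -0.20, -0.24 and -0.76 in the p14 pair. It gave 0.00, 0.16, -0.20 and -0.20 in the p12 pair, 0.33 and 0.26 in the TBV2 pair, and -0.02 and -0.40 in the mixed pair. The first pair was below 0 on all 5 arrays, the TBV2 pair above 0 on both, and the arrays of the first 2 pairs overlapped. Within the p14 pair the fitted ratio was -0.32 ± 0.09 (SE, limma, adjusted p = 0.0461). This call held in 5 of 20 alternatives and was lost when any single array was left out, other than array 1 of the p14 pair (limma, adjusted p up to 0.343). The difference between the p14 pair and the p12 pair was -0.26 ± 0.13 (SE, limma, adjusted p = 0.168), so the 2 pairs were not shown to differ. Id1 and Id3 correlated at -0.49 over the 13 arrays, given as a description, since arrays of a pair share their sources.

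Dusp6 encodes the cytoplasmic phosphatase MKP-3, which inactivates ERK and is induced by FGF signalling, on chromosome 10 at 99263231 to 99267489 (GRCm38.p6). It gave 0.06, 0.56, 0.85, 0.91 and 2 on the arrays of the p14 pair. It gave -0.88, -0.47, 0.83 and 0.21 in the p12 pair, -0.53 and -0.44 in the TBV2 pair, and 0.00 on both arrays of the mixed pair. The first pair was above 0 on every array, the second lay on both sides with its arrays split by dye orientation, and the TBV2 pair was below 0 on both. Arrays 3 and 4 of the p12 pair lay within the range of the p14 pair, so the pairs overlapped.

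Within the p14 pair the fitted ratio of Dusp6 was 0.95 ± 0.21 (SE, limma, adjusted p = 0.0325). Its pair value was 0.97, with 880 of 16543 probes at or above it and 109 at or below its negative. The difference from the p12 pair was 1.03 ± 0.31 (SE, limma, adjusted p = 0.0460). Both calls changed with the processing. The first held in 12 of 20 alternatives and the second in 8 of 20, with adjusted p in limma up to 0.298 and 0.181. Scaling the arrays to equal spread gave 0.52 within the p14 pair and ended the call, as did leaving out array 2, 3, 4 or 5 of that pair, or array 1 or 2 of the p12 pair. Without arrays 4 and 5 together the ratio was 0.59 and both calls were lost. The call of the difference was lost after scaling, without array 2, 4 or 5 of the p14 pair, without array 1, 2 or 4 of the p12 pair, and without any array of the TBV2 or mixed pair. The mean of the 3 pairs was 0.14 ± 0.75 (SD, n = 3), with -0.23 over arrays with NT1 in Cy5 and 0.50 over arrays with TBV in Cy5.

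Promoter windows of 250 bases before to 50 bases after the RefSeq start were at hand for 6 of the 10 members. Those of Dusp6 and Id3 are printed because both genes were called within the p14 pair, in opposite directions. Both are from GRCm38.p6 on the plus strand, Dusp6 at chr10:99262981-99263280 and Id3 at chr4:136143572-136143871. Capitals mark matches, on either strand, to any of 5 motifs: CAGAC and GGCGCC (Smad), TTCNNNGAA (STAT), CCGGAA (Ets) and TGTNNATT (FoxH1).
Dusp6: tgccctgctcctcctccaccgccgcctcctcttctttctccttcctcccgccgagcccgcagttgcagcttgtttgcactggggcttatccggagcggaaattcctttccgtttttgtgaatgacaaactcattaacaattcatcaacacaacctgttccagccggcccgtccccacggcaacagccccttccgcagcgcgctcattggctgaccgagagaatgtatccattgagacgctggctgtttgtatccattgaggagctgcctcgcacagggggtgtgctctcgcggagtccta
Id3: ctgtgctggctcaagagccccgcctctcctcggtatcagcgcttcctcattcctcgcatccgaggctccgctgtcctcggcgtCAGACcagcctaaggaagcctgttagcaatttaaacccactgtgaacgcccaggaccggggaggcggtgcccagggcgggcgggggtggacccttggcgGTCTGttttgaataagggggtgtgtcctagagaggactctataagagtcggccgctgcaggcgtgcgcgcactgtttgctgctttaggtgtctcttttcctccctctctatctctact

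The Dusp6 window held none of these motifs. The Id3 window held CAGAC 2 times, at -167 and -68 from the start, and 49.6% of all 32851 windows hold at least 1 CAGAC on either strand. Among the other windows, Il6st had CCGGAA at -218 and -147, and Bmp4 had it at -95. That motif stands in 14.9% of all windows. An Etv5 window had GGCGCC at -231 (11.9% of all windows), and each of 2 Pim1 windows had 1 CAGAC. TTCNNNGAA and TGTNNATT, in 8.3% and 12.2% of all windows, matched none of the 8 member windows. A match describes letters and not a bound site, and the absence of one says only that these letters are not in this window.

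Dusp4 encodes a nuclear phosphatase of ERK and related kinases. It gave 0.29, 0.33 and -0.75 on arrays 1, 3 and 4 of the p14 pair and had no value on arrays 2 and 5. It gave 0.33, -0.20, 0.14 and -0.75 in the p12 pair, 0.21 and 0.17 in the TBV2 pair, and 0.01 and 0.13 in the mixed pair. The values of the first 2 pairs cover the same range. The mean of the 3 pairs was 0.04 ± 0.15 (SD, n = 3). Unlike its relative Dusp6, Dusp4 was not called in any fit (limma, adjusted p = 0.931 within the p14 pair), and the difference between the 2 genes was not tested.

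Etv5 encodes an Ets family transcription factor induced by FGF and ERK signalling. One probe gave values close to 0, at 0.00, 0.03, -0.11, -0.21 and -0.17 in the p14 pair and -0.13, 0.03, 0.25 and -0.08 in the p12 pair. It gave -0.04 and 0.07 in the TBV2 pair, and -0.10 and -0.06 in the mixed pair. The arrays of the p14 pair overlapped with those of the p12 pair, and the mean was -0.02 ± 0.07 (SD, n = 3), the smallest spread between pairs of any member. A second Etv5 probe had a single value, 5 on array 1 of the p14 pair, against 0.00 for the first probe on that array, so the probes disagree there and the second was not tested.

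Pim1 encodes a serine/threonine kinase whose gene is induced by Stat3. It gave 0.06, 0.02, -0.15, -0.43 and -0.47 in the p14 pair, and 0.08, 0.13, 0.23 and -0.18 in the p12 pair. It gave 0.35 and 0.08 in the TBV2 pair, and 0.24 and 0.22 in the mixed pair. The lowest arrays were 4 and 5 of the first pair, which overlapped with the second. The ratio within the p14 pair was -0.21 ± 0.10 (SE, limma, adjusted p = 0.159), and the mean of the 3 pairs was 0.02 ± 0.22 (SD, n = 3).

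Il6st encodes gp130, the signalling receptor chain shared by LIF and interleukin 6, and was on 2 probes. The first gave 0.06, 0.34, -0.13, -0.04 and -0.54 in the p14 pair, and 0.01, 0.06, 0.00 and -0.15 in the p12 pair. It gave 0.23 and 0.11 in the TBV2 pair, and 0.20 and 0.07 in the mixed pair. All arrays of the p12 pair lay within the range of the p14 pair. The second probe had 10 values, -0.63, 0.80 and -0.23 on arrays 1, 4 and 5 of the p14 pair and -0.27, -0.16 and 0.48 on arrays 1, 2 and 4 of the p12 pair. It gave 0.18 and -0.18 in the TBV2 pair, and -0.07 and -0.04 in the mixed pair. The probes correlated at -0.03 over these 10 arrays, and their means were 0.01 ± 0.14 and 0.02 ± 0.10 (SD, n = 3).

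**Figure D2:**
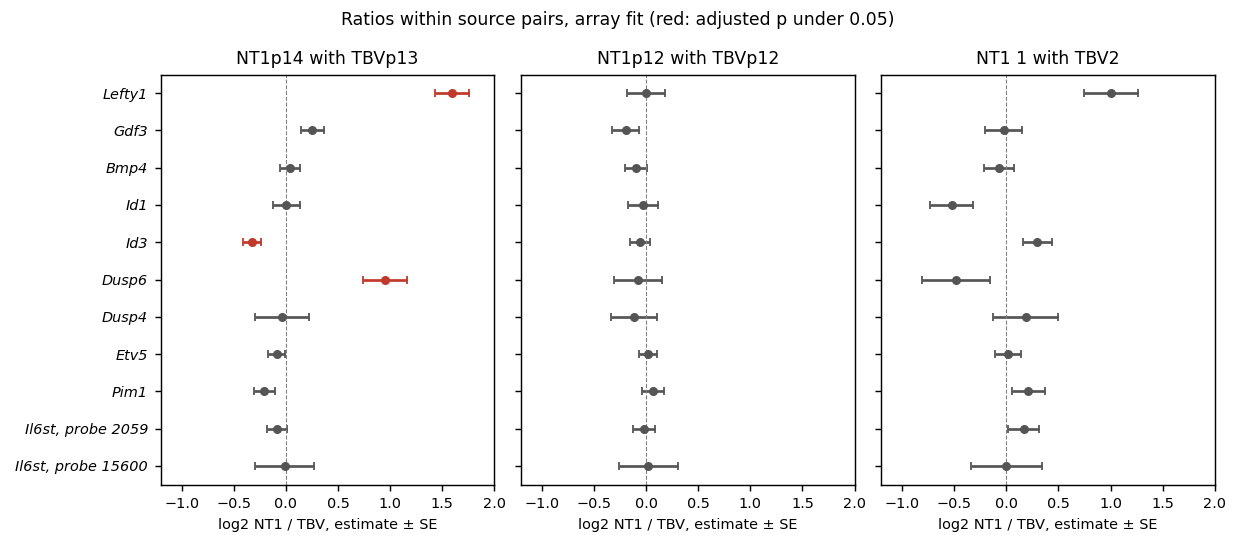
Log2 ratio of NT1 over TBV (horizontal axis, estimate ± SE) of the 11 member probes within each independent source pair, from limma over all 13 arrays, with red for adjusted p under 0.05. Red points are Lefty1 at 1.59, Dusp6 at 0.95 and Id3 at -0.32, all within the p14 pair.

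Both NT1p14 and NT1p12 were set against TBVp13, which gives a comparison of the NT1 preparations through a shared source. NT1p14 minus NT1p12 was 1.58 for Lefty1, 0.97 for Dusp6, 0.40 for Gdf3 and -0.45 for Pim1, on the log2 scale and with no test. Lefty1 and Dusp6 were at 0.00 on both arrays of the mixed pair, where 40.3% to 40.4% of all values were whole numbers, so a 0 on those arrays may hide a small ratio of either sign.

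**Figure D3:**
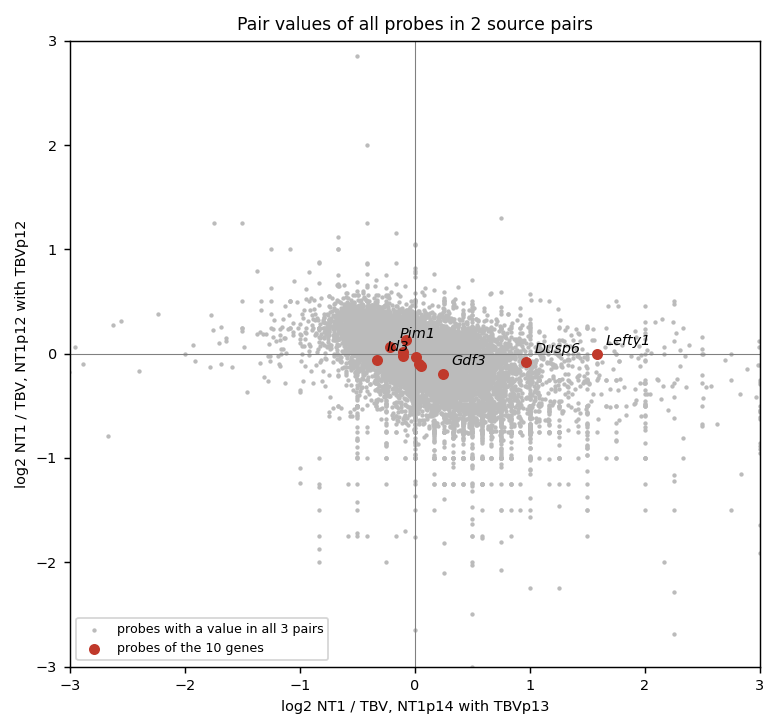
Pair values of all probes measured in the 3 independent pairs, the p14 pair on the horizontal and the p12 pair on the vertical axis (log2 NT1 over TBV, axes limited to 3, which leaves 53 probes outside), with member probes in red. Lefty1 (1.58 and 0.00) and Dusp6 (0.97 and -0.08) stand to the right of the other members.

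Members were also set beside markers of other cells the sources could hold. The median of 10 measured fibroblast markers, out of 12 listed, ranged over arrays from 0.16 to 1.00 in the p14 pair, from -0.57 to -0.13 in the p12 pair, from -0.53 to -0.38 in the TBV2 pair and from 0.00 to 0.27 in the mixed pair. Of these 10 genes, 6 had a probe called higher within the p14 pair, where 5.42% of all probes were called higher. Among them were Col3a1, a fibrillar collagen, at 0.90 (limma, adjusted p = 0.0144), and Acta2, smooth muscle actin, at 1.19 (limma, adjusted p = 0.0261). None was called lower, but the list was not uniform. Thy1 was at -0.20 and 0.01 on its 2 probes, and Lox at -0.00 and -0.38. Of the 3 Sparc probes, 1 was called higher and the others were at -0.33 and -0.92. A second probe of Col1a1 and of Vim was not called. These calls were lost without arrays 4 and 5 of the p14 pair, where 0 probes were called within that pair. After scaling the arrays to equal spread only 19 of all probes were called there. All 13 values of the called Vim probe and of S100a4 were whole numbers. Over the 13 arrays this median correlated with Dusp6 at 0.77, with Lefty1 at 0.72, with Gdf3 at 0.68, with Id3 at -0.65 and with Pim1 at -0.61. These are descriptions over arrays that share their sources. The TBV2 pair had Lefty1 at 1.00 beside fibroblast markers below 0. The part of these markers in the members' ratios was not tested.

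**Figure D4:**
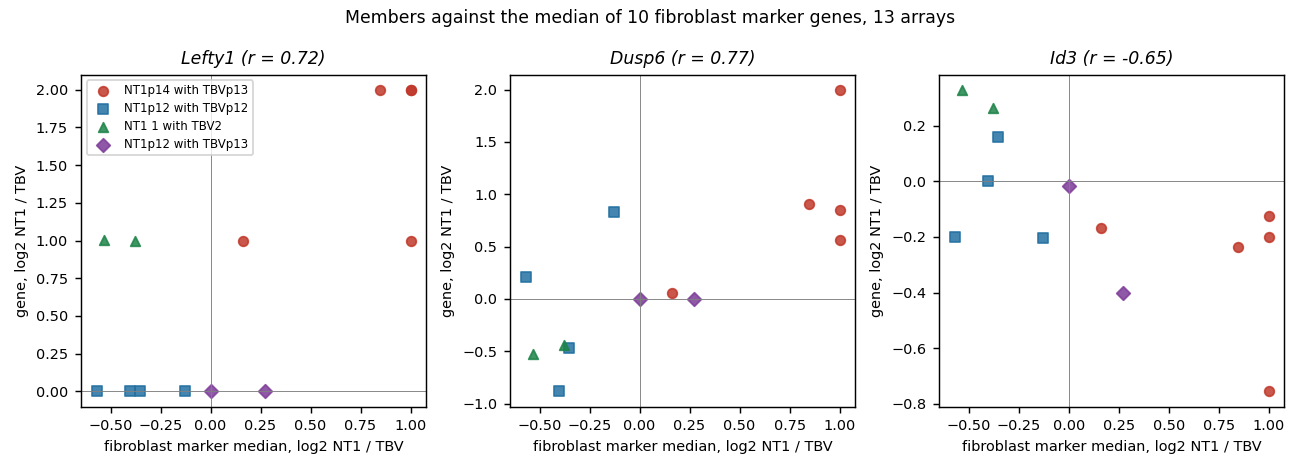
Log2 ratio of Lefty1, Dusp6 and Id3 (vertical axes) against the median log2 ratio of 10 fibroblast marker genes (horizontal axes) on the 13 arrays, with symbols for the source pairs. Dusp6 (r = 0.77) and Lefty1 (r = 0.72) are higher and Id3 (r = -0.65) is lower where the marker median is higher, and both arrays of the TBV2 pair have Lefty1 at 1 with a marker median below 0.

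Pluripotency markers had array medians from -0.66 to 0.00 in the p14 pair, from -0.79 to -0.46 in the p12 pair and from -0.29 to -0.27 in the TBV2 pair, and 5 of 7 were below 0 in all 3 pairs. Within the p12 pair 3 of the 7 were called lower, Oct4, Zfp42 and Esrrb (limma, adjusted p = 0.0494, 0.0242 and 0.0444), where the background was 0.259%. These 3 calls were lost without array 1 or array 4 of the p12 pair, where 0 probes were called. For Oct4 and Zfp42, 11 of 13 values each were whole numbers. Within the p14 pair Esrrb and Fgf4 were called lower (limma, adjusted p = 0.0469 and 0.0308), where the background was 10.7%, and none of the 7 was called higher in either pair. Without arrays 4 and 5 of the p14 pair 0 probes were called within it. The correlations of the median of these markers with the members lay between -0.27 for Id1 and 0.53 for Gdf3. Of 8 endoderm markers 1 was above 0 in all 3 pairs, and 1 of 4 neural markers was below 0 in all 3. Of 4 trophectoderm markers named on the array, 3 had a value in all 3 pairs, and all 3 were above 0 there. The remaining one, Gata3, had values on 6 arrays and stood at -1.85 in the p12 pair. Over all named genes 8.75% lay above 0 in all 3 pairs and 5.82% below. These counts rest on the unsettled direction. No marker was called with the pairs as replicates (limma, 0 of 15973 probes).

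The other genes of the 4 pathways gave no call with the pairs as replicates either. Of 33 genes listed for Nodal, 12 were measured in all 3 pairs, of which 1 lay above 0 in all 3 and 2 below, with a median of 0.03. Smad4, the Smad shared by the Nodal and BMP branches, was at 0.18 ± 0.13 (SD, n = 3), Trim33, a ubiquitin ligase that acts on Smads, at -0.19 ± 0.16, and Pcsk6, a convertase that processes Nodal, at -0.16 ± 0.22. For BMP 8 of 34 were measured in all 3 pairs, none of them on one side of 0 throughout, with a median of -0.04.

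For FGF 18 of 49 genes were measured in all 3 pairs, with a median of -0.00. Fgf10 lay above 0 in all 3 pairs at 0.12 ± 0.04, and Fgf4, the FGF made by embryonic stem cells themselves, below 0 in all 3 at -0.48 ± 0.17 (SD, n = 3). For LIF 19 of 36 were measured in all 3 pairs, with a median of -0.02. Pim2, the relative of Pim1, was at 0.47 ± 0.46, Klf4, a pluripotency factor induced by LIF, at -0.32 ± 0.18, and Cish, an inhibitor of cytokine signalling, at -0.06 ± 0.01 (SD, n = 3).

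Within the p14 pair, 6 of 62 pathway genes tested were called, each named here after its value was seen. They were on 6 of 74 probes, a share of 8.11% that lay below the background of 10.7%, so nothing particular to the pathways is read from it. Tgfbr2, the type II TGF-beta receptor, was higher at 0.36 ± 0.10 (SE, limma, adjusted p = 0.0483), and Ptpn2, a phosphatase of Jak kinases, at 1.5 ± 0.31 (SE, limma, adjusted p = 0.0332). Lower were Smad3 at -0.51, Smurf2, a ubiquitin ligase of BMP Smads, at -0.56, Fgf4 at -0.53 and Stat5b at -0.41 (limma, adjusted p = 0.0350, 0.0308, 0.0308 and 0.0452). Smad3 and Smurf2 are uncertain, since a second probe of each disagreed, at 0.24 for Smad3 and 0.10 for Smurf2 (limma, adjusted p = 0.187 and 0.309). Each of these 6 calls was lost when arrays were scaled to equal spread and when arrays 4 and 5 of the p14 pair were left out, and those of Smad3 and Smurf2 also when probes were averaged per gene. They held in 5 of 20 alternatives for Tgfbr2 up to 12 of 20 for Fgf4.

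The difference between the p14 pair and the p12 pair was called for 10 of the 62 pathway genes, on 13.5% of 74 probes, below the background of 19.1%, so again nothing is read from the count. It was above 0 for Inhba, Furin, Tyk2 and Ptpn2 and below 0 for Smad3, Bmp6, Smurf2, Dusp2, Socs1 and Cebpd. Smurf2 had the smallest adjusted p of these (-0.91, limma, adjusted p = 0.0174). Of these genes 5 had a second probe that was not called, at -0.02 for Smad3, 0.11 for Smurf2, -0.11 for Socs1, 0.18 for Tyk2 and 0.53 for Furin (limma, adjusted p = 0.943, 0.470, 0.786, 0.740 and 0.145), and they are uncertain. All 10 calls were lost without arrays 4 and 5 of the p14 pair, and all but that of Smurf2 after scaling. They held in 6 of 20 alternatives for Bmp6 up to 16 of 20 for Smurf2.

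**Figure D5:**
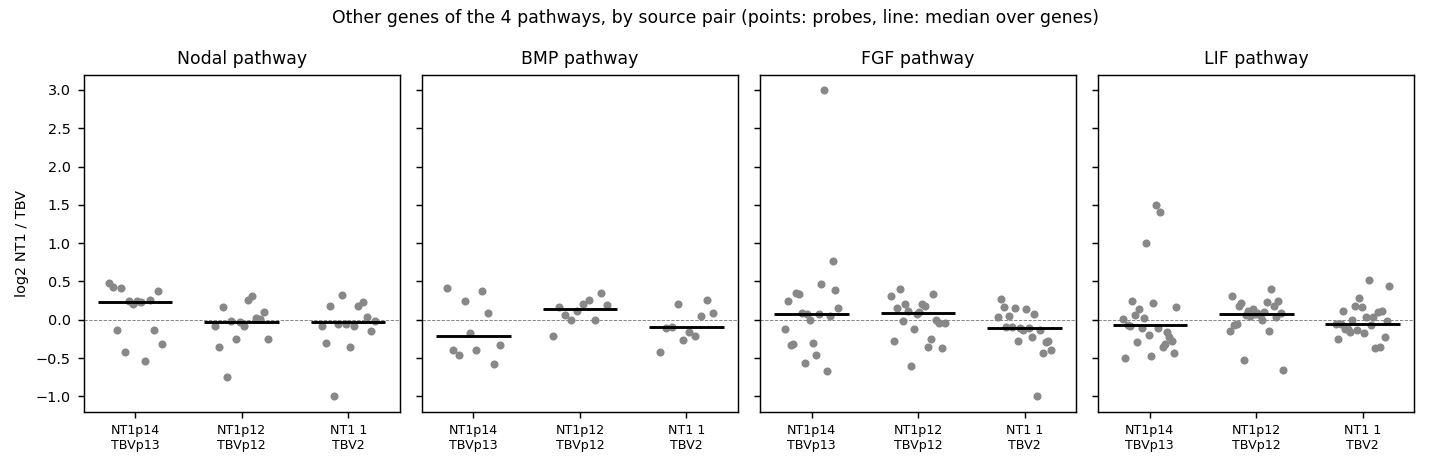
Pair values (log2 NT1 over TBV, vertical axis) of the other genes of the Nodal, BMP, FGF and LIF pathways in the 3 independent source pairs, 1 point per probe, with the median over genes as a bar. The medians lie between -0.21 (BMP, the p14 pair) and 0.23 (Nodal, the p14 pair).

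The genes whose ratios were most like those of each member were found by Pearson's r over the arrays both had, among genes with at least 10 shared arrays, and nothing is said here of shared function. For Lefty1 they were Gtf2a2 (r = 0.94, 11 arrays) and Nat8l (r = 0.92, 13 arrays), and for Dusp6 Marcks (r = 0.98) and Pa2g4 (r = 0.96, both over 13 arrays). Marcks stood at 1.07, 0.07 and -0.18 in the 3 independent pairs, beside 0.97, -0.08 and -0.48 for Dusp6. For Id3 they were Bcr (r = 0.92) and Dnajb3 (r = 0.91), for Id1 Krt86 (r = 0.87) and Dst (r = 0.82), and for Gdf3 Eef2 and Mdp1 (r = 0.95 each). For Bmp4 they were Trim21 (r = 0.95) and Nipsnap2 (r = 0.93), for Dusp4 Bzw1 and Kif22 (r = 0.93 each), and for Etv5 Fcgbp (r = 0.86) and Rrad (r = 0.85). For Pim1 they were Nxn and Fbxl8 (r = 0.89 each), for the first Il6st probe 2610016A17Rik (r = 0.91) and Synpo2l (r = 0.90), and for the second Fgf10 (r = 0.93) and Sapcd2 (r = 0.88).

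Among the members themselves, Dusp6 ran opposite to Id3 (r = -0.82), Pim1 (r = -0.71) and the first Il6st probe (r = -0.65) over 13 arrays. Pim1 and that Il6st probe correlated at 0.73, Id3 and that probe at 0.72, and Lefty1 and Gdf3 at 0.69. Among the FGF readouts r was -0.33 between Dusp6 and Dusp4 over 11 arrays and -0.18 between Dusp6 and Etv5 over 13. The second Il6st probe stood at r = 0.21 with Dusp6 over 10 arrays, unlike the first. With Dusp4 it stood at r = -0.84 over 9 arrays, the largest size among the members. The pairs of members named here are a part of all such pairs, and no background over other probes was computed. These values describe the arrays, which share their sources within a pair, and carry no test.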

How the data were processed

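Total RNA of NT1 and TBV sources was compared on 13 two-colour arrays, 7 with NT1 in Cy5 and 6 with TBV in Cy5, per the labels. The authors deposited 1 log ratio per probe and array, treated here as log2 Cy5 over Cy3 because values reach a size of 15. The log base, numerator, normalisation and scanner processing are not given in the sources used here. Intensities were not used here, so signal over background is unknown. Part of the values carry no decimals.

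Arrays were centred on their median and turned to NT1 over TBV. A pair value is the mean of both dye orientations, each weighted equally. The 3 independent pair values were tested against 0 with limma 3.58.1 in R 4.3.3 (two-sided, Benjamini-Hochberg over 15973 probes, threshold 0.05). A second limma fit over all 13 arrays gave 1 ratio per source pair and a dye term, with 1 shared spread. For probes with missing values its ratios differ from the pair values. Probes of a gene were kept apart, and averaged in an alternative. Precision is limited by how many arrays and independent pairs there are, and by values without decimals.

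The text names all members, pathway genes past the threshold, up to 4 pathway genes per direction with the same sign in all 3 pairs and the largest mean, and the 2 genes most like each member by r (at least 10 shared arrays and 6 values other than 0). The members and lists were chosen with earlier results of these data known. Promoters are from RefSeq (GRCm38.p6). Alternatives covered the replicate unit, dye orientation, pair direction, centring, scaling, missing and whole-number values, probes per gene, robust moderation and leaving out pairs or arrays. Plots used Python 3.11.15 and matplotlib 3.10.9.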

Additional observations from a re-analysis of the deposited data

Results flagged for a closer look

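Id3 on array 5 of the p14 pair stood at -0.76, far from the other 4 arrays of that pair, which lay between -0.24 and -0.12. It was the 1 array that stood apart by Dixon's criterion in 18 groups of 4 or 5 arrays, where chance marks about 1 in 20 groups. Lefty1 differed between source pairs, with the p14 pair minus the p12 pair at 1.59 ± 0.25 (SE, limma over all arrays, adjusted p = 0.0152). Dusp6 differed between the same pairs by 1.03 ± 0.31 (SE, limma over all arrays, adjusted p = 0.0460). In this comparison 19.1% of 17937 probes were called.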

How the results depend on the processing

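Over the members and named pathway genes, 1015 of 1304 values under an alternative kept their direction and their side of the threshold, 196 kept the direction but lost the call, 0 gained one and 93 changed sign. Of the called members, Lefty1 within the p14 pair held in 18 of 19 alternatives (1.32 to 1.77), Dusp6 in 12 of 20 (0.52 to 1.10) and Id3 in 5 of 20 (-0.41 to -0.20), with 0 changes of sign. The alternative without whole numbers could not be run for Lefty1, since all 13 of its values are whole numbers. Leaving out arrays 4 and 5 of the p14 pair was chosen after seeing the data. Each array holds both sources of its pair, so every ratio is already paired within its array. Array numbers only name arrays, so no further pairing between arrays was used.

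With 3 pairs as replicates limma called 0 probes under every alternative run except the source pair as a random block, which counts arrays of a pair separately and called 4, none of them a member (correlation within pairs -0.16). The difference between the p14 and p12 pairs was called for 3423 probes, for 894 after scaling, 1648 per gene, 97 without arrays 4 and 5 of the p14 pair, and 0 to 4987 without single arrays. Within the p14 pair 1931 were called, 19 after scaling, 1225 without whole numbers, 938 per gene, 0 without arrays 4 and 5, and 37 to 4093 without single arrays. Within the p12 pair 47 were called, 144 among probes on every array, 450 without whole numbers, 652 without arrays 4 and 5, and 0 to 186 without single arrays. Within the TBV2 pair 4 were called, 13 after scaling, 0 without whole numbers, 1 per gene, and 2 to 18 without single arrays. The dye effect was called for 474, 0 after scaling, 1057 on every array, 1548 without whole numbers, 17 per gene, 0 without arrays 4 and 5, and 0 to 318 without single arrays. The cause of these moves was not tested, beyond fewer features where genes or fewer arrays were tested.

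The mean of the 3 pairs changed sign in these cases, none of them called. From arrays with TBV in Cy5 alone, it was -0.068 for Pim1, -0.099 for Il6st probe 1, -0.029 for Gdf3, 0.0036 for Etv5 and -0.069 for Smad4. With the p12 pair turned, it was -0.022 for Pim1, 0.021 for Bmp4, -0.068 for Il6st probe 2, 0.010 for Id3 and 0.024 for Klf4. With the p14 pair turned, it was -0.19 for Lefty1, -0.51 for Dusp6, -0.15 for Gdf3, 0.19 for Id3, 0.045 for Etv5, -0.0006 for Smad4, 0.12 for Pcsk6, 0.013 for Trim33 and -0.19 for Pim2. From arrays with NT1 in Cy5 alone, it was -0.23 for Dusp6, 0.19 for Bmp4, 0.079 for Id3 and -0.19 for Pim2. After scaling, it was -0.028 for Dusp6, -0.021 for Gdf3, -0.055 for Il6st probe 2 and 0.030 for Id3. With 4 pairs, it was -0.035 for Gdf3. With medians of turned arrays, it was -0.033 for Gdf3 and -0.13 for Il6st probe 2. Without arrays 4 and 5 of the p14 pair, it was -0.058 for Gdf3 and 0.022 for Id3. With the source pair as a random block, it was -0.025 for Dusp4 and -0.015 for Il6st probe 2. With probes averaged per gene, it was 0.12 for Etv5.

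After scaling, the ratio within the p14 pair was 0.0054 for Il6st probe 1 and 0.17 for Dusp4. Without arrays 4 and 5 of the p14 pair, the ratio within the p14 pair was 0.064 for Il6st probe 1, -0.017 for Bmp4 and 0.31 for Dusp4. With probes averaged per gene, the ratio within the p14 pair was 0.38 for Etv5. After scaling, the difference between the p14 and p12 pairs was 0.025 for Il6st probe 1. Without arrays 4 and 5 of the p14 pair, the difference between the p14 and p12 pairs was 0.083 for Il6st probe 1. With probes averaged per gene, the difference between the p14 and p12 pairs was 0.36 for Etv5. The Etv5 values per gene come from the single value of its second probe. When single pairs or arrays were left out, these results also changed sign. The mean ranged from -0.16 to 0.077 for Bmp4, from -0.13 to 0.0095 for Cish, from -0.045 to 0.13 for Dusp4, from -0.28 to 0.44 for Dusp6, from -0.049 to 0.017 for Etv5, from -0.11 to 0.11 for Gdf3, from -0.19 to 0.12 for Id3, from -0.099 to 0.14 for Il6st probe 2, from -0.063 to 0.075 for Il6st probe 1 and from -0.074 to 0.14 for Pim1. The ratio within the p14 pair ranged from -0.012 to 0.10 for Bmp4, from -0.31 to 0.31 for Dusp4, from -0.14 to 0.10 for Id1, from -0.43 to 0.28 for Il6st probe 2 and from -0.16 to 0.021 for Il6st probe 1. The difference between the p14 and p12 pairs ranged from -0.19 to 0.43 for Dusp4, from -0.11 to 0.13 for Id1, from -0.49 to 0.29 for Il6st probe 2 and from -0.14 to 0.041 for Il6st probe 1. For the other sign changes the cause was not tested, and where a pair was turned the turn itself sets it.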
